A study of Mus musculus with 24 samples.

Results

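The 35 genes described here encode lysosomal hydrolases, cathepsins, their sphingolipid activator and cholesterol carriers, proteins of the lysosomal membrane and the transcription factor Tfeb. They were chosen by gene name from the 45706 genes of the deposited table, and every one of them was found there. The study sequenced RNA from bulk populations of primary fibroblasts of mouse embryos (MEFs), a mixed culture of connective tissue cells, from the strain labelled C57B1/6. The cells were either cGAS KO, lacking the cytosolic DNA sensor encoded by Mb21d1, or wild type (WT), and all were kept under 20% oxygen. RNA was taken on day 33 (passage 11), day 36 (passage 12) and day 42 (passage 14) of each genotype. The 4 numbered samples of each genotype and day differed by less than the sampling noise and were counted as 1 library, which leaves 3 libraries per genotype, 1 for each day. The days served as the replicates of a genotype, and the genotype test held no term for day. The labels do not state that the days came from separate cultures, so the p-values measure the spread among these libraries alone. In the genotype test that spread includes change with day and passage, and it may otherwise be technical.

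The lysosome is an acidic organelle in which proteins, glycans, lipids and nucleic acids are broken down by hydrolases. Most of these enzymes are made as precursors, tagged with mannose 6-phosphate in the Golgi and carried to the lysosome by receptors. Many of their genes are induced by Tfeb, a factor that enters the nucleus when nutrients are scarce and binds a DNA element centred on CACGTG. Senescent fibroblasts are known for an enlarged lysosomal compartment, and the activity of the Glb1 product, beta-galactosidase, is the standard stain for them.

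The Tfeb-type element was looked for in promoters because it is the sequence feature that many of these genes are known to share. RefSeq (GRCm38.p6) gave 34 promoters for 30 of the 35 members, each running from 250 bases before to 50 bases after the transcript start. The 6 letters CACGTG read the same on both strands, and they occurred in 11 of the 34 promoters (32.4%), against 7.15% of all 32851 promoters of that length. The 11 members were Arsa, Ctsa, Ctsd, Ctsf, Ctsl, Gaa, Glb1, Lamp1, Mcoln1, Naglu and Sgsh. The upstream sequences of 4 members are printed here, with CACGTG in capitals. Ctsk is shown because it differed most between the genotypes and held no such match. Gaa is shown because, of the members called lower that had a promoter, it alone held the match. Ctsb, also called lower, was not among the members with a promoter. Glb1 and Lamp1 are shown because they are the usual lysosomal markers.
Ctsk, + strand, chr3:95498960-95499209: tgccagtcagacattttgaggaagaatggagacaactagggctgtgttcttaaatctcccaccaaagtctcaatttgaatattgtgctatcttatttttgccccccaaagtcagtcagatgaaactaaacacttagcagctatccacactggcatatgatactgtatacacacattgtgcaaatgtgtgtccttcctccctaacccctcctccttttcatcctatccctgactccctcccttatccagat
Gaa, + strand, chr11:119267796-119267855: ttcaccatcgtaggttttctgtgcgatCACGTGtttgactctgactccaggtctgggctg
Glb1, + strand, chr9:114400828-114401077: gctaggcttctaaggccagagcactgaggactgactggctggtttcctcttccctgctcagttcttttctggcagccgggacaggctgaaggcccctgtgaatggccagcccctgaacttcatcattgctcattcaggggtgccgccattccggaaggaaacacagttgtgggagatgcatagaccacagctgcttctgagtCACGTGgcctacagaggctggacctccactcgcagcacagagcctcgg
Lamp1, + strand, chr8:13159073-13159132: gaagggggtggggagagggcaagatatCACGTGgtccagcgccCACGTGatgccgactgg
The first base of the match lay 140 bases before the RefSeq start of Gaa and 48 bases before that of Glb1. Lamp1 had 4 matches, at 61, 45, 28 and 15 bases before its start, of which the printed stretch holds the first pair. The longer form GTCACGTG, searched on both strands and always containing CACGTG, occurred in 8 members, against 2.25% of all promoters. A match is a description of the letters and not a binding site.

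The libraries held 33636556, 25651250 and 36447639 estimated counts in KO cells and 48717439, 47092611 and 35025184 in WT cells on days 33, 36 and 42. Mb21d1, the targeted gene, had 8, 0 and 5 counts in KO cells, against 222, 178 and 168 in WT cells, so its level followed the genotype labels. The 0 on day 36 allows a level of up to 0.112 CPM, counting error only. CPM is a gene's count scaled to the library's size, and it can be compared between libraries for 1 gene but not between genes of unequal length. Fibroblast genes were abundant in all libraries: 12 fibroblast markers summed to 62262, 52011 and 53555 CPM in KO cells and to 56946, 60554 and 61254 CPM in WT cells, and 1 of them, S100a4, was called lower. Fn1, Col1a1 and Col1a2 made up most of that sum. Over the 12 markers, 11 estimates were negative, 6 had an unadjusted p below 0.05 and the median log2 fold change was −0.66, with −3.05 for Lum, −2.78 for Dcn and −1.63 for Pdgfra. Thy1 averaged 508 CPM in KO cells and 1102 CPM in WT cells, with an adjusted p of 0.0567 by edgeR. Xist, made from an inactive X chromosome, averaged 528 ± 97.8 CPM in KO cells and 0.201 ± 0.154 CPM in WT cells (SD, n = 3 each). The 4 Y-linked genes Ddx3y, Uty, Kdm5d and Eif2s3y were detected in both genotypes and called lower in KO cells, so genotype and this difference in sex-linked transcripts cannot be told apart. A set of 20 macrophage markers summed to 115, 8.88 and 7.35 CPM in KO cells and to 257, 51.6 and 13.2 CPM in WT cells, with 0, 4 and 11 of the 20 at 0 in KO cells and 1, 1 and 1 at 0 in WT cells.

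Per transcript length, most members were abundant transcripts. All 35 passed the filter on low counts that left 17233 genes for testing, and every member reached at least 5 CPM in some library. Mean RPKM (deposited reads scaled for transcript length and depth, over the 6 libraries) had a median of 17.8 among the members and 2.77 among the genes tested, and 32 of the 35 members lay above that second value. The cysteine protease Ctsl and the aspartic protease Ctsd led with 356 and 304 RPKM, followed by the membrane protein Lamp1 with 256 RPKM, the saposin precursor Psap with 222 RPKM and the tetraspanin Cd63 with 157 RPKM. The lowest were Tfeb with 0.474 RPKM, Ctsc with 2.30 RPKM and Idua with 2.39 RPKM. Together the members took 0.882, 1.01 and 0.940% of all counts in KO cells on days 33, 36 and 42, against 1.08, 1.04 and 1.04% in WT cells.

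The main comparison set the members in KO cells against those in WT cells over the 3 days. Here fell and rose mean lower and higher in KO cells than in WT cells. Of the 35 members, 8 fell in KO cells and 1 rose (edgeR's quasi-likelihood test, Benjamini-Hochberg adjusted p below 0.05 over all genes tested). These 9 are 25.7% of the members, against 8.72% of all 17233 genes called. The 8 that fell are 22.9%, against 4.65% of all genes called lower, while 4.07% of all genes were called higher. The members were chosen with earlier results of these data known and had a higher median RPKM than the genes tested. These shares are therefore no test of the members as a set. The estimate was negative for 29 of the 35 members, against 50.9% of all genes, and the median log2 fold change was −0.26 for the members and −0.01 for all genes. In 17 members every KO library lay below every WT library, against 17.1% of all genes, and in 2 members (Ctsh and Gusb) every KO library lay above, against 17.2% of all genes (34.3% in either direction). DESeq2 called 17 members, against 16.6% of all genes. Without the KO day 36 library or the KO day 42 library 1 member was called (Ctsk), along with 24 and 68 genes in all, without WT day 33 it was 2 (Ctsk and Ctsb) of 254 genes, and without WT day 36 it was 5 of 738 genes. In bulk RNA, fewer cells that express a gene and less RNA per cell cannot be told apart.

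Among the 9 cathepsins and the tripeptidyl peptidase Tpp1, 3 were called, against 8.72% of all genes. These 3 differed in direction and size. Ctsk, a cysteine protease that cuts native collagen and is best known from osteoclasts, lies at chr3:95499256-95509362. It had 8.89, 12.7 and 9.48 CPM in KO cells on days 33, 36 and 42, against 137, 115 and 125 CPM in WT cells. The KO values sat in a narrow band about an order of magnitude below the WT values, and the genotypes did not overlap. Ctsk fell by 3.61 on the log2 scale (SE 0.17, edgeR adjusted p = 0.000969). It passed the threshold after leaving out any 1 of the 6 libraries, with adjusted p of 0.0039 to 0.0151, and in all 16 other settings.

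Ctsb, an abundant cysteine protease of the lysosome (chr14:63122462-63145923), had 427, 491 and 417 CPM in KO cells and 949, 843 and 1078 CPM in WT cells. The highest KO library held far less than the lowest WT library. Ctsb fell by 1.1 on the log2 scale (SE 0.13, edgeR adjusted p = 0.0101). Without the KO day 36 library the adjusted p was 0.0613, and without the KO day 42 library it was 0.0561, with log2 fold changes of −1.18 and −1.06.

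Ctsh, an aminopeptidase (chr9:90054152-90076089), was the one member that rose. It had 52.8, 78.9 and 76.8 CPM in KO cells and 21.3, 33.6 and 31.5 CPM in WT cells. The lowest KO library exceeded the highest WT library, and in both genotypes day 33 was the lowest day. Ctsh rose by 1.27 on the log2 scale (SE 0.23, edgeR adjusted p = 0.0251), and the call was lost without KO day 36 (0.111), KO day 42 (0.102) or WT day 33 (0.0703). Ctsh lies 11.6 Mb from Mb21d1 on the same chromosome, where 9.03% of 886 tested genes were called. Hexa and Glb1 lie on that chromosome too, 18.9 and 36.0 Mb from Mb21d1. Whether sequence near the targeted gene differs between the lines was not tested.

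Ctsl and Ctsd, the proteases with the highest RPKM, did not pass the test. Ctsl, a cysteine endopeptidase, had 1136, 1822 and 1825 CPM in KO cells and 976, 1237 and 929 CPM in WT cells. The KO value was above the WT value of the same day each time, but KO day 33 lay below WT day 36 (log2 fold change 0.61, SE 0.22, edgeR adjusted p = 0.141). Ctsd, the lysosomal aspartic protease, had 1170, 1310 and 948 CPM in KO cells and 1659, 1554 and 1562 CPM in WT cells. Its KO and WT libraries did not overlap (log2 fold change −0.48, SE 0.15, edgeR adjusted p = 0.0947). Ctsf, another cysteine protease, had 13.6, 16.3 and 22.0 CPM in KO cells and 25.1, 24.3 and 44.7 CPM in WT cells, and again the genotypes did not overlap (log2 fold change −0.86, SE 0.29, edgeR adjusted p = 0.122).
The other 4 of the group were not called. The carboxypeptidase Ctsz averaged 161 ± 9.19 CPM in KO cells and 215 ± 20.8 CPM in WT cells (SD, n = 3 each), with an edgeR adjusted p of 0.0547. The protective protein Ctsa had a log2 fold change of −0.33, Tpp1 of −0.16 and the dipeptidyl peptidase Ctsc of 0.09. The summed CPM of the 9 cathepsins was 3264, 4198 and 3719 in KO cells, against 4379, 4408 and 4259 in WT cells, while the other 26 members summed to 5616, 5504 and 4969 CPM in KO cells and to 6836, 6807 and 6227 CPM in WT cells.

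**Figure D1:**
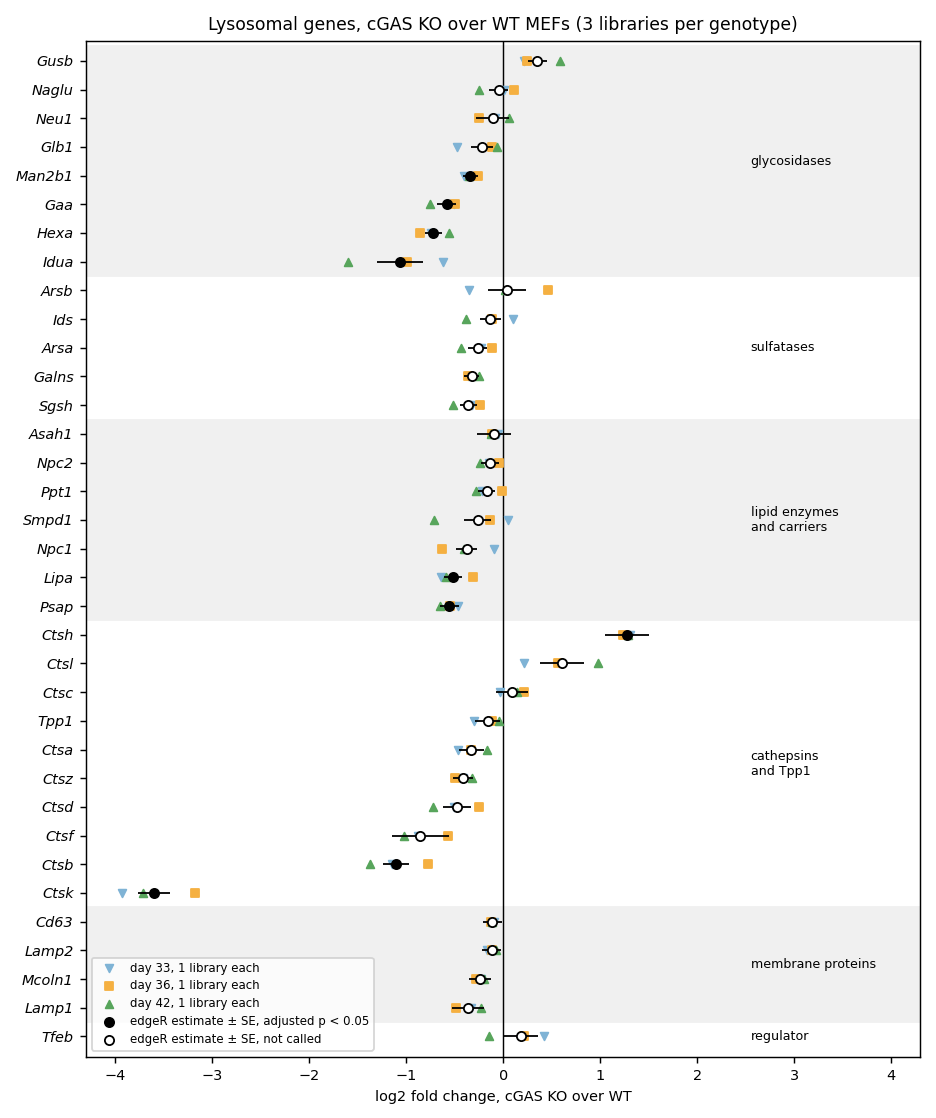
Log2 fold change of each of the 35 members, cGAS KO over WT, grouped by role. Circles are edgeR estimates with their SE over 3 libraries per genotype (filled where the adjusted p is below 0.05), and coloured symbols are the differences between the single libraries of days 33, 36 and 42. Ctsk stands far to the left at −3.61, Ctsh to the right at 1.27, and 29 of the 35 estimates are below 0.

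Of the 8 glycosidases, which cut sugars from glycans, glycolipids and glycogen, 4 fell in KO cells and none rose. Over all genes, 4.65% were called lower and 4.07% higher. Hexa, the alpha subunit of beta-hexosaminidase (chr9:59539540-59565109), had 151, 136 and 152 CPM in KO cells and 253, 246 and 225 CPM in WT cells. It fell by 0.72 on the log2 scale (SE 0.09, edgeR adjusted p = 0.0103). Gaa, the acid glucosidase that degrades glycogen (chr11:119267887-119285454), had 240, 221 and 197 CPM in KO cells and 342, 312 and 332 CPM in WT cells. It fell by 0.59 (SE 0.10, edgeR adjusted p = 0.0240). In both genes the WT libraries were all above the KO libraries, with a gap wider than the spread within a genotype.
Idua, the iduronidase that acts on heparan and dermatan sulfate (chr5:108660331-108684557), had 15.3, 9.78 and 9.79 CPM in KO cells and 23.5, 19.6 and 29.8 CPM in WT cells. It fell by 1.06 on the log2 scale (SE 0.24, edgeR adjusted p = 0.0443). Man2b1, the lysosomal alpha-mannosidase (chr8:85083270-85098282), had 90.9, 97.3 and 98.1 CPM in KO cells and 120, 117 and 125 CPM in WT cells. It fell by 0.34 (SE 0.08, edgeR adjusted p = 0.0440). These calls were near the threshold.
Hexa lost its call without KO day 36 (edgeR adjusted p = 0.0687), KO day 42 (0.0529) or WT day 33 (0.0561), and Gaa without KO day 36 (0.117), KO day 42 (0.0916), WT day 33 (0.103) or WT day 36 (0.0538). Man2b1 lost it without any 1 of the 6 libraries (0.0525 to 0.155), and Idua without each library but KO day 33 (0.0585 to 0.168 without KO day 36, KO day 42, WT day 33, WT day 36 or WT day 42).

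Glb1, the senescence-associated beta-galactosidase gene (chr9:114401076-114474898), had 68.1, 85.8 and 78.5 CPM in KO cells and 95.1, 92.9 and 82.2 CPM in WT cells. The KO value was the lower one on each day, but KO day 36 lay above WT day 42, and the difference did not pass the test (log2 fold change −0.22, SE 0.11, edgeR adjusted p = 0.268). Gusb, the beta-glucuronidase, had 104, 109 and 126 CPM in KO cells and 89.8, 92.1 and 83.8 CPM in WT cells. It was higher in all KO libraries than in any WT library without being called (log2 fold change 0.35, SE 0.10, edgeR adjusted p = 0.0791). The sialidase Neu1, with a log2 fold change of −0.11, and the glucosaminidase Naglu, with −0.05, overlapped between the genotypes.

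None of the 5 sulfatases, which remove sulfate from glycosaminoglycans and sulfatide, was called. At an unadjusted p below 0.05 edgeR counted 3 of the 5, and over all members 19 of 35, against 27.3% of all genes. Every KO library of Galns, Sgsh and Arsa lay below every WT library. Galns averaged 21.5 ± 0.332 CPM in KO cells and 27 ± 1.16 CPM in WT cells (SD, n = 3 each), with an edgeR adjusted p of 0.0551. Sgsh averaged 31.8 ± 1.1 CPM in KO cells and 40.8 ± 3.02 CPM in WT cells, with an edgeR adjusted p of 0.0561. Arsb had 36.4, 48.0 and 52.1 CPM in KO cells and 46.6, 34.8 and 51.6 CPM in WT cells, without an order between the genotypes. The iduronate sulfatase Ids had a log2 fold change of −0.13.

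Among the 7 lipid enzymes and carriers, Psap and Lipa fell, against 4.65% of all genes called lower. The estimate was negative for all 7, against 50.9% of all genes. Psap, the precursor of the saposins that present sphingolipids to their hydrolases (chr10:60277627-60302597), had 993, 934 and 898 CPM in KO cells and 1372, 1362 and 1416 CPM in WT cells. The spread within either genotype was small beside the gap between the genotypes. Psap fell by 0.55 on the log2 scale (SE 0.10, edgeR adjusted p = 0.0271). Lipa, the acid lipase that frees cholesterol from its esters (chr19:34492318-34527474), had 83.8, 92.6 and 89.3 CPM in KO cells and 131, 115 and 135 CPM in WT cells. It fell by 0.52 (SE 0.09, edgeR adjusted p = 0.0243).
Both calls were lost without KO day 36 (edgeR adjusted p = 0.133 for Psap and 0.1 for Lipa), without KO day 42 (0.114 and 0.0987) and without WT day 33 (0.111 and 0.103), and that of Psap also without WT day 36 (0.0682).
The cholesterol carrier Npc1 averaged 62.0 ± 5.81 CPM in KO cells and 80.5 ± 7.63 CPM in WT cells (SD, n = 3 each), with an edgeR adjusted p of 0.0846. Its soluble partner Npc2 and the palmitoyl-protein thioesterase Ppt1 were also lower in every KO library than in any WT library, with log2 fold changes of −0.14 and −0.17 that were not called. Acid ceramidase, Asah1, and acid sphingomyelinase, Smpd1, overlapped between the genotypes, with log2 fold changes of −0.10 and −0.27.

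**Figure D2:**
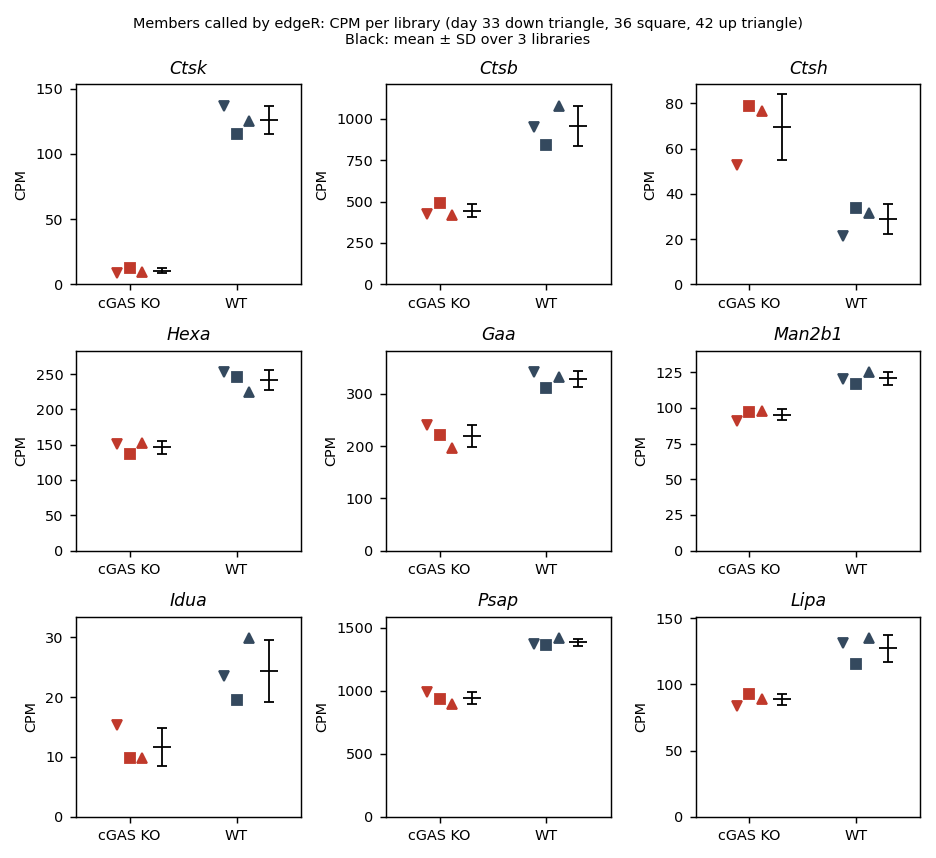
CPM (from 0) of the 9 called members in each library, cGAS KO left and WT right, with day 33 as a down triangle, day 36 as a square and day 42 as an up triangle. Black marks are the mean ± SD of 3 libraries. KO and WT libraries do not overlap in any of the 9, and only Ctsh is higher in KO cells.

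None of the 4 membrane proteins was called, and no unadjusted p of theirs was below 0.05. Lamp1, the main glycoprotein of the lysosomal membrane, had 1037, 1005 and 854 CPM in KO cells and 1309, 1409 and 1004 CPM in WT cells. WT day 42 lay below KO days 33 and 36 (log2 fold change −0.36, SE 0.16, edgeR adjusted p = 0.211). The calcium channel Mcoln1 had a log2 fold change of −0.24, Lamp2 of −0.12 and Cd63 of −0.11. Tfeb had 6.58, 5.15 and 4.49 CPM in KO cells and 4.91, 4.43 and 4.99 CPM in WT cells, without an order between the genotypes (log2 fold change 0.18, SE 0.18, edgeR adjusted p = 0.571).

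Lamp2 makes 3 known proteins that differ in their last exon, and the deposited transcript table counts them separately. LAMP-2A, the form known for chaperone-mediated autophagy, had 121, 112 and 104 CPM in KO cells and 166, 167 and 184 CPM in WT cells. Its share of the 3 forms was 21.7, 19.7 and 19.8% in KO cells and 26.3, 27.1 and 32.7% in WT cells. The genotypes did not overlap in either measure. With 3 libraries per genotype, any measure without overlap must give the smallest possible permutation p, so that test decides nothing here. The share averaged 20.4 ± 1.15% in KO cells and 28.7 ± 3.47% in WT cells (SD, n = 3 each; two-sided exact permutation p = 0.1, the smallest that 3 against 3 allows, and 0.12 adjusted over 6 such tests). LAMP-2B, the form with the most counts, had 435, 455 and 422 CPM in KO cells. In WT cells it had 456, 445 and 365 CPM (exact permutation p = 0.9). Its share averaged 79.5% in KO cells and 69.8% in WT cells, without overlap. The shares of the 3 forms depend on each other. LAMP-2C had 0, 0.0119 and 0.918 CPM in KO cells and 9.75, 2.23 and 14.8 CPM in WT cells, and the 0 of KO day 33 allows up to 0.0898 CPM. The forms were examined after their values had been seen, reads of shared exons are assigned by an estimate, and Lamp2 is X-linked, as is Ids. Of 885 X-linked genes tested, 8.25% were called.

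**Figure D3:**
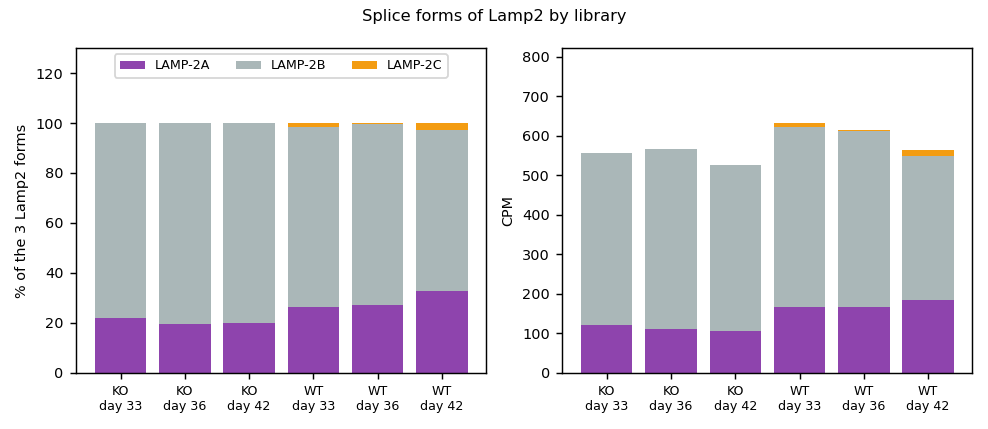
Splice forms of Lamp2 in each library, cGAS KO left of WT, as a percentage of the 3 forms and in CPM. The LAMP-2A part is 19.7 to 21.7% in KO libraries and 26.3 to 32.7% in WT libraries, and LAMP-2C stays under 1 CPM in KO cells.

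The macrophage markers were also set beside the members, since macrophages are known to be rich in cathepsins. None of the 18 such markers that were tested was called between the genotypes by edgeR, 0 had an unadjusted p below 0.05, and their median log2 fold change was −1.33. With day, all 18 had a negative slope at an unadjusted p below 0.05 and 0 were called. The genotype test held no term for day, so this fall with day added to its spread. The SE of the log2 fold change ran from 0.40 for Cd14 to 1.96 for Lyz1. The missing calls therefore do not show equal levels, and the summed markers were lower in KO cells on each day. On day 42 the markers summed to 7.35 CPM in KO cells and 13.2 CPM in WT cells. Of the set of 20 markers, 11 were at 0 CPM in KO cells and 1 in WT cells. A 0 in that KO library allows up to 0.0761 CPM. The highest markers on that day were Cd14 with 2.08 CPM in KO cells and Csf1r with 3.76 CPM in WT cells. The log2 difference on day 42 was −3.72 for Ctsk and −1.37 for Ctsb. Day 33 held most of the marker signal. On day 36 the markers still summed to 8.88 CPM in KO cells and 51.6 CPM in WT cells. Leaving out both day 33 libraries therefore did not remove the marker difference between the genotypes. In that fit 2 members remained called, Ctsk (−3.45, edgeR adjusted p = 0.0181) and Ctsh (1.25, 0.0326). They were among 429 of 17367 genes called, and 29 of 35 estimates were negative. Ctsb was not called there (log2 fold change −1.08, edgeR adjusted p = 0.0717). The part of macrophages in the values of the members was not tested. Of the osteoclast markers, Mmp9 was called lower (edgeR adjusted p = 0.0175) with 0.180, 0.112 and 0.431 CPM in KO cells and 8.39, 10.3 and 2.32 CPM in WT cells. Itgb3 had 62.6, 90.8 and 156 CPM in KO cells and 58.9, 71.3 and 51.5 CPM in WT cells (log2 fold change 0.77, not called). Tnfrsf11a and Oscar had log2 fold changes of −0.38 and −1.36 and were not called. Acp5 did not exceed 0.790 CPM in any library, and Dcstamp and Calcr were at 0 CPM in KO cells and at most 0.0214 CPM in WT cells. The fibroblast genes Dcn and Pdgfra followed the same direction as Ctsk without being called: Dcn had 7.6, 12.8 and 18.4 CPM in KO cells and 72.1, 23.7 and 170 CPM in WT cells. Their part in the Ctsk result was not tested. A neighbour of Ctsk on chromosome 3, Arnt, averaged 73.2 ± 1.21 CPM in KO cells and 76.2 ± 4.99 CPM in WT cells (SD, n = 3 each). Arnt alone does not describe the other genes near Ctsk.

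Day by day, 1 library stood against 1 and there is no test. On day 33, 7 members differed by at least 1.5-fold with at least 5 CPM in the higher library, 1 higher and 6 lower in KO cells, against 9.96% of all genes (4.46% higher and 5.51% lower). On day 36 the count was 6, with 1 higher and 5 lower, against 12.6% of all genes (6.15% higher and 6.46% lower). On day 42 it was 11, with 2 higher and 9 lower, against 16.2% of all genes (7.24% higher and 8.97% lower). Ctsk had the lowest difference on each of the 3 days (log2 −3.94, −3.18 and −3.72) and Ctsh the highest (1.31, 1.23 and 1.28). The difference was farther from 0 on each later day for Idua, at −0.62, −0.996 and −1.60, and for Ctsl, at 0.22, 0.56 and 0.97. On days 33, 36 and 42, KO cells were the lower ones in 28, 28 and 29 of the 35 members.

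The change with day was fitted as a straight line over both genotypes. No member and no gene was called (0.0% of 17233 genes; lowest adjusted p of a member 0.268), while at an unadjusted p below 0.05 edgeR counted 7 members, 6 of them lower with time, against 14.7% of all genes (7.31% lower). DESeq2 called 2 members, against 2.7% of all genes. Ctsf had the smallest p of the 7: from the first to the last day its fitted change was 0.80 on the log2 scale (SE 0.14, edgeR adjusted p = 0.268). Asah1 had 731, 674 and 517 CPM in KO cells and 757, 733 and 566 CPM in WT cells, lower on each later day in both genotypes (fitted change −0.47, SE 0.11, edgeR adjusted p = 0.275). Neu1, Ctsc, Tpp1, Lamp1 and Mcoln1 had fitted changes of −0.44, −0.41, −0.30, −0.36 and −0.25. Neu1 had 30.5, 28.9 and 24.1 CPM in KO cells and 32.4, 34.4 and 23.2 CPM in WT cells. Ctsc had 29.4, 26 and 23 CPM in KO cells and 30.1, 22.5 and 20.9 CPM in WT cells, and Tpp1 had 230, 234 and 206 CPM in KO cells and 285, 253 and 212 CPM in WT cells. In all 3 genes day 42 was the lowest day of both genotypes.

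Within a genotype, day 42 against day 33 again rests on single libraries. In KO cells 3 members passed 1.5-fold, against 7.2% of all genes (2.87% higher and 4.33% lower): Ctsf (log2 0.69) and Ctsl (0.68) were higher on day 42 and Idua (−0.64) was lower. In WT cells 1 member passed, Ctsf (0.83), against 9.8% of all genes (5.28% higher and 4.52% lower).

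The test of whether the genotypes changed differently with day called no member and no gene (0.0% of 17233 genes; lowest adjusted p of a member 0.586). At an unadjusted p below 0.05 edgeR counted 2 members, Smpd1 and Ids, against 7.74% of all genes, and DESeq2 called 0 members and 0.749% of all genes. Smpd1 had 82.3, 76.5 and 63.0 CPM in KO cells and 79.7, 83.9 and 103 CPM in WT cells. Ids had 97.4, 87.1 and 80.5 CPM in KO cells and 90.9, 94.3 and 105 CPM in WT cells. In both genes the KO values descend and the WT values ascend over the 3 days, starting from similar levels, with differences in slope of −0.77 (SE 0.18) and −0.48 (SE 0.18) on the log2 scale from day 33 to day 42.

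**Figure D4:**
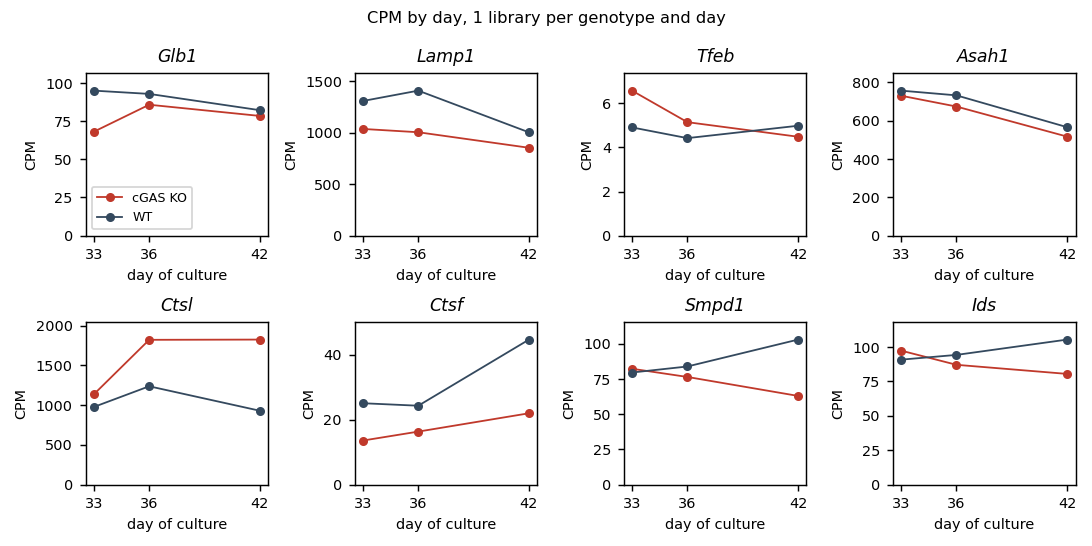
CPM (from 0) of 8 members on days 33, 36 and 42, with 1 library per genotype and day, cGAS KO in red and WT in dark blue. Asah1 is lower on later days in both genotypes, Ctsf is highest on day 42 in both, and the lines of Smpd1 and Ids cross between day 33 and day 36.

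Other genes of the lysosome were read from lists chosen like the members, to set beside them. Against 8.72% of all genes called and 4.65% called lower, 5 of 25 other hydrolases and activators fell in KO cells, none rose, and the median log2 fold change was −0.28. The serine carboxypeptidase Scpep1 had 308, 291 and 267 CPM in KO cells and 755, 549 and 598 CPM in WT cells, and fell by 1.14 on the log2 scale (SE 0.14, edgeR adjusted p = 0.0108). The aspartylglucosaminidase Aga fell by 0.74 (SE 0.11, edgeR adjusted p = 0.0146), the hyaluronidase Hyal1 by 0.997 (SE 0.17, edgeR adjusted p = 0.0217) and the beta-mannosidase Manba by 0.44 (SE 0.08, edgeR adjusted p = 0.0298).
None of the 17 tested subunits of the proton pump (V-ATPase), which acidifies the lysosome, was called by edgeR, although 16 estimates were negative, 5 had an unadjusted p below 0.05 and the median was −0.27. Of 17 membrane proteins and channels, Tpcn1 (−0.44, adjusted p = 0.0317) and Laptm4a (−0.47, 0.0457) fell. None of the 7 mannose 6-phosphate and sortilin sorting genes was called; their median was −0.03, 4 estimates were negative and 3 had an unadjusted p below 0.05.
Of 18 Tfeb relatives and nutrient-sensing genes, Lamtor2 (−0.35, edgeR adjusted p = 0.0472) and the sparsely counted Tfec fell, Tfec with at most 0.0898 CPM in KO cells and 0.631 to 1.83 CPM in WT cells. Tfe3, the abundant relative, had 66.1, 72.8 and 69.1 CPM in KO cells and 70.1, 68.3 and 70.1 CPM in WT cells. Of 23 autophagy genes, Gabarapl1 (−0.66, edgeR adjusted p = 0.0233) and Atg12 (−0.43, 0.0370) fell and none rose, with 21 estimates negative; 8.72% of all genes were called. Of 5 tested cathepsin inhibitors none was called; Cst3, the one with the smallest adjusted p, had 163, 118 and 110 CPM in KO cells and 190, 204 and 335 CPM in WT cells (edgeR adjusted p = 0.0848). None of 4 epithelial and 4 endothelial markers was called.

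The calls were also set against the promoter matches. Of the 7 called members with a promoter in the table, 1 (Gaa) held CACGTG, and of the 23 members that were not called, 10 held it.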

How the data were processed

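RNA of 24 numbered samples (4 for each of 2 genotypes on 3 days) was purified with spin columns and libraries were prepared with a strand-keeping mRNA kit, per the labels' protocols. The authors' gene and transcript tables hold estimated counts, which are fractional and carry no normalization, per the file headers. RPKM per gene was also deposited by the authors, per the file headers, and served here only to compare levels between genes. Per the submitters' processing notes, Bowtie2 2.2.1, limma 3.18.13 and the build mm10 were used in roles that are not named. The program that counted reads, its annotation and its use of strand are not given by the sources used here. Near-identical or overlapping genes, such as Lyz1 and Lyz2, may therefore share reads and are uncertain. Another 24 per-sample columns, RPKM of transcripts, were not used.

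The 4 columns of a group were compared over the 12385 to 13738 genes with at least 80 counts, and their chi-square averaged 0.832 to 0.843 per degree of freedom, against 12.8 to 67 between single columns of different groups. They were therefore summed, giving 6 libraries of 25651250 to 48717439 counts, and rounded. Genes were filtered with edgeR 4.0.16's filterByExpr (17233 of 45706 genes kept), scaled by TMM and tested with its quasi-likelihood test in R 4.3.3, for genotype (3 libraries each), a linear change with day (genotype kept in the model, 3 residual degrees of freedom) and their interaction (2). Benjamini-Hochberg adjustment ran over all genes tested, with a threshold of 0.05. Standard errors are approximate and were derived from each estimate and its F statistic. CPM uses TMM library sizes. Single libraries were compared at 1.5-fold with a prior count of 2 and at least 5 CPM, with no test. Intervals and floors (3 counts) cover counting error only. The fits were tested on simulated data.

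Members and lists were chosen with earlier results of these data known. One gene of the other hydrolases is not reported here by name. All members are accounted for. Values in every library are given for Glb1, Lamp1, Tfeb, Ctsb, Ctsd, Ctsl, called members and those with the largest single-library differences. From other lists up to 4 genes by adjusted p are named, mostly without library values, and from some lists none. Genes outside that rule (Ids, Tfe3, Arnt, the Lamp2 forms and the marker genes named) were chosen after their values were seen. Gene coordinates are those of GENCODE M21 (GRCm38), matched by gene ID, and promoters those of RefSeq. Lamp2 forms were told apart by the end of the open reading frame of the annotated transcript. Alternatives were RLE and upper-quartile scaling, no filter, DESeq2 1.42.0, limma-voom (limma 3.58.1), day as a factor, leaving out a library, day or column number, and the 24 columns kept apart.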

Additional observations from a re-analysis of the deposited data

How the results depend on the processing

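Between the genotypes 9 members were called. RLE or upper-quartile scaling, limma-voom, no filter, day as a factor and a non-robust fit gave 7 to 9, and leaving out a column number gave 8 to 10. DESeq2 called 17 (2855 genes in all, against 1503). Leaving out 1 library gave 1 to 10 (24 to 1811 genes), namely 1 when KO day 36 or KO day 42 was missing, 2 for WT day 33 and 5 for WT day 36. Leaving out both libraries of day 33, 36 or 42 gave 2, 1 and 3 (429, 3 and 539 genes), each with 2 libraries per genotype.

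Keeping the 24 columns apart gave 32 members, and adding the column number as a replicate block also gave 32 (11107 and 11103 genes). Those columns agree within sampling noise, so these 2 counts carry no spread between cultures. The numbers did not pair samples: same-numbered columns of different groups had a mean correlation of deviations of 0.0110 over 5002 genes, against −0.00368 for different numbers.

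With day, DESeq2 called 2 members. At 2-fold in place of 1.5-fold, KO against WT gave 3, 2 and 5 members on days 33, 36 and 42. Over all 17233 genes it gave 779, 902 and 1145. Day 42 against day 33 gave 0 members in KO cells and 0 in WT cells, against 476 and 607 of all genes. The count of members in WT cells, 1 at 1.5-fold, was 1 to 2 when a column number was left out.

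No called member changed sign. Among uncalled members the sign of the log2 fold change turned for Arsb (−0.11 to 0.18 leaving out 1 library, −0.15 without day 36), Asah1 (−0.21 to 0.0390), Ctsc (−0.00750 to 0.27), Naglu (−0.0945 to 0.0257; 0.0659 without day 42), Neu1 (−0.26 to 0.00125) and Ids (0.000284 without day 42). Except as given beside each result, the cause was not tested. Leaving out 1 library in turn from the genotype-by-day test and from the LAMP-2A share was chosen after seeing the data: the test called 0 members each time, and the KO minus WT share was −9.49 to −6.30 percentage points. With 3 libraries per genotype, a p that misses the threshold does not show that a gene did not differ.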
